A study of Mus musculus with 359 samples.

Results

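The lungs described here came from male B6C3F1 mice, the F1 hybrid of the C57BL/6 and C3H strains, that were dosed by gavage for 2 days. The group given 300 mg/kg-d of 4-methylimidazole (4-MEI, a small imidazole found in caramel colours) holds 6 libraries, and the group given vehicle holds 6. These 12 libraries, chosen by the dose and the M suffix in their column names, are part of 359 in a series on liver and lung over dose and time. The 3 further male groups of the same table are those at 50, 100 and 200 mg/kg-d. They and the female lungs of day 2 serve for comparison and also enter the estimate of the spread. The male livers of the same day and the male lungs after 5 and 28 days of 4-MEI in feed are used only for comparison. The labels give no age, no time of day and no statement that each library is a separate animal. The p-values therefore measure the spread between libraries, which may in part be technical. In the main fit that spread was estimated over all 60 day 2 lung libraries, not over these 12 alone. The RNA came from lung tissue with all its cell types, in which fewer cells of a type and less RNA per cell cannot be told apart.

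The lung meets inhaled and blood-borne chemicals with several cell types. Club cells of the airway carry much of its cytochrome P450 and aldehyde dehydrogenase activity, flat type 1 cells cover most of the gas exchange surface, and a dense capillary endothelium lies beneath them. Natural killer (NK) cells, lymphocytes that kill target cells with perforin and granzymes, are held in large numbers in the lung vasculature.

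Library totals were 13823484 to 17322212 counts at 300 mg/kg-d and 14223044 to 15361698 counts with vehicle. The summed level of the Y-linked genes Uty, Kdm5d, Eif2s3y and Ddx3y was 72.03 to 214 CPM (read counts scaled to library size by TMM) at 300 mg/kg-d and 172 to 199 CPM with vehicle, against at most 0.523 CPM in the 30 female lungs. Xist, transcribed from the inactive X chromosome, reached at most 0.313 CPM in the 12 libraries. Each of 10 club cell markers and 12 type 2 cell markers reached 0.5 CPM in at least 1 library, and the type 2 marker Sftpc had 12545 CPM or more in every one.

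One library of the 300 mg/kg-d group, replicate 66, stood apart from the other 11. Genes with under 1500 bases of exon lay a median of 1.15 log2 units above the 12-library median in replicate 66, and genes with over 6000 bases lay 0.58 below it. In the other 11 libraries these medians stayed between -0.13 and 0.02 for short genes and between -0.01 and 0.07 for long genes. Compared with the mean of the others, 1907 genes were over 2-fold higher in replicate 66 and 1797 over 2-fold lower. The lower genes alone were 11.8% of the 15240 genes compared. Each of the other 11 libraries had 5 to 76 higher, and 0.0328% to 0.906% of genes lower, the most in replicate 68. The ribosomal transcript Rn45s reached 39129 CPM in replicate 66 and 4201 to 15943 CPM elsewhere. The first principal component took 58.8% of the variance of the 1000 most variable genes and separated replicate 66 from the rest. Its Y-linked sum, 72.03 CPM, was the lowest of the 12, and its summed club cell markers were 131740 CPM, against 31546 to 46352 CPM in the other 300 mg/kg-d libraries and 39462 to 49362 CPM with vehicle. The main counts and most called genes are therefore given with and without this library.

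**Figure D1:**
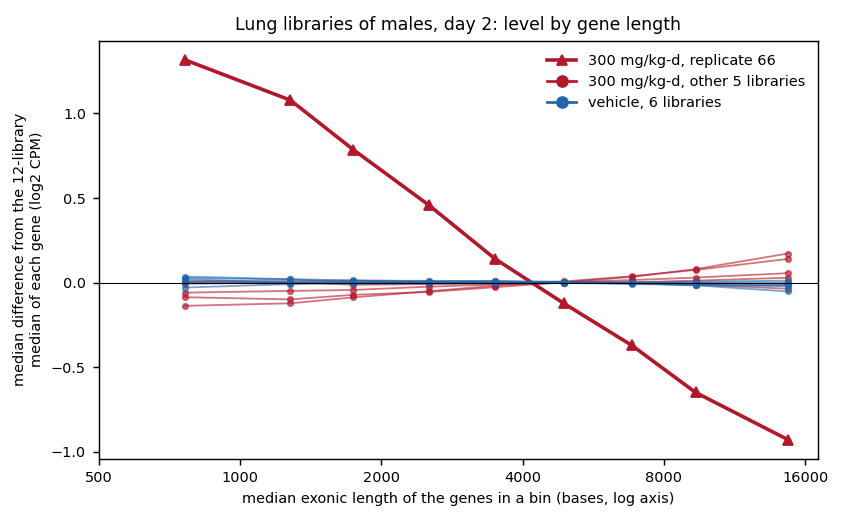
Median difference of each library from the 12-library median (y axis, log2 CPM) for genes grouped by exonic length (x axis, bases, log axis), with red lines for 300 mg/kg-d and blue lines for vehicle. Replicate 66 slopes from above 1 for short genes to below -0.5 for long genes, and the other 11 libraries stay near 0.

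With all 12 libraries, 32 of 15240 genes passed an adjusted p of 0.05 (edgeR quasi-likelihood test), 16 higher and 16 lower at 300 mg/kg-d, or 0.210% of the genes tested. The genes that rose included the enzymes Aldh3a1, Gsta2 and Acaa1b, the water channel Aqp1, the surface protein Ly6c1 and the transcription factor Foxs1, of which Gsta2, Acaa1b and Ly6c1 did not pass without replicate 66. The genes that fell included Pdpn, Emp2, Gpm6a, Nt5e, Csf1r and Prf1. Of the 13 cell type and pathway lists with a called member, 12 had 1 such member, so these are results on single genes. The median size of the 32 changes, without sign, was 0.49 on the log2 scale, beside 0.11 over all genes tested, and the signed median over all genes was 0.02. The 300 mg/kg-d and vehicle libraries did not overlap for 11 of the 16 higher and 10 of the 16 lower genes, beside 93 of all 15240 genes, or 0.610%. The 32 genes were picked by a test on these same libraries, which favours large and separated changes. Their sizes and lack of overlap are therefore descriptions and no test. Without replicate 66, 172 of 15283 genes passed, 110 higher and 62 lower, or 1.13%. That set held 24 of the 32 genes. Without it, 400 genes had groups that did not overlap, or 2.62%. When the 12 libraries were fitted alone, without the other groups of the table, none passed with edgeR (718 at an unadjusted p under 0.05), and 174 passed when replicate 66 was also left out. DESeq2 on all libraries called 82 higher and 69 lower, or 0.991%.

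**Figure D2:**
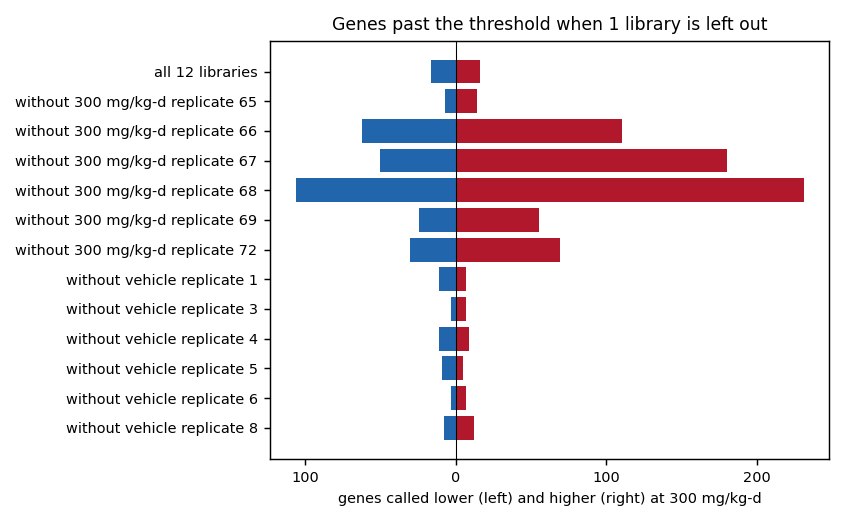
Genes past the threshold at 300 mg/kg-d in male lung (x axis, number of genes; lower to the left in blue, higher to the right in red) with all 12 libraries and with each library left out in turn (y axis). The total ran from 21 to 337 when a 300 mg/kg-d library was left out and from 10 to 20 when a vehicle library was left out.

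Single libraries therefore moved the count in both directions. Leaving out 300 mg/kg-d replicate 68, 67, 72 or 69 gave 337, 230, 99 and 79 calls that held 32, 32, 31 and 32 of the 32 genes, and leaving out replicate 65 gave 21 calls that held 18. Leaving out vehicle replicate 1, 3, 4, 5, 6 or 8 gave 18, 10, 20, 14, 10 and 20 calls, which held 17, 10, 20, 13, 9 and 15 of the 32 genes. No gene of the 32 changed sign in any of these fits.

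Among genes of chemical metabolism, Aldh3a1 (chr11:61207537-61218421, plus strand, GRCm38), an aldehyde dehydrogenase that oxidises medium-chain and aromatic aldehydes and is a classical target of the aryl hydrocarbon receptor (AHR), rose. Its lowest, median and highest levels were 31.6, 54.6 and 86.4 CPM at 300 mg/kg-d, against 21.5, 28.6 and 34.6 CPM with vehicle. In 5 of the 6 treated lungs it lay above every vehicle lung, and replicate 68 lay within the vehicle range. The log2 fold change was 1.01 ± 0.19 (SE; adjusted p = 0.00591), and 0.86 ± 0.19 without replicate 66 (adjusted p = 0.0138). It was the 1 called member of the 8 AHR targets tested and of the 16 alcohol and aldehyde metabolism genes tested. The AHR list had a median of -0.04, and Nqo1, a quinone reductase on it, had 10.5 to 13.7 CPM at 300 mg/kg-d against 9.51 to 11.9 CPM with vehicle (log2 fold change 0.13, adjusted p = 0.71). Aldh1a1, a retinaldehyde dehydrogenase of airway cells, had a median of 2465 CPM at 300 mg/kg-d and 1962 CPM with vehicle, and its change of 0.34 did not pass (adjusted p = 0.0734).

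Gsta2 (chr9:78331018-78355788, minus strand), a glutathione S-transferase that conjugates electrophiles, was the 1 called member of the 19 NRF2 targets tested, a list of antioxidant genes whose median change was 0.14. The lowest, median and highest Gsta2 levels were 3.45, 4.13 and 9.69 CPM at 300 mg/kg-d, against 2.39, 2.90 and 3.08 CPM with vehicle, with no overlap. Its log2 fold change was 0.81 ± 0.19 (adjusted p = 0.0422). Replicate 66 held the highest value, and without it the change was 0.53 ± 0.17 and did not pass (adjusted p = 0.106). Its near copy Gsta1, to which some of its reads could be assigned, was under 1 CPM in all 12 libraries and was not tested.

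Acaa1b (chr9:119148023-119157093, minus strand), a peroxisomal 3-ketoacyl-CoA thiolase, was the 1 called member of the 22 genes of PPAR-alpha and fatty acid oxidation tested (list median 0.25, and 0.07 without replicate 66). Its levels were 16.8, 19.0 and 67.7 CPM at 300 mg/kg-d, against 10.2, 14.4 and 16.2 CPM with vehicle. The treated lungs lay above every vehicle lung, but 5 of them stayed between 16.8 and 19.97 CPM and replicate 66 made the maximum. The log2 fold change of 0.91 ± 0.21 (adjusted p = 0.0365) became 0.39 ± 0.15 without it (adjusted p = 0.183). Its near copy Acaa1a had medians of 51.8 CPM at 300 mg/kg-d and 53.03 CPM with vehicle, with a change of 0.25 that did not pass (adjusted p = 0.392). In female lungs at 300 mg/kg-d, 6 of the 22 list members were called higher and 0 lower (list median 0.22). Over all genes, 3.64% were called higher there. None of the 15 lung cytochrome P450 and flavin monooxygenase genes tested passed. Fmo1, an N-oxidising monooxygenase, had groups that did not overlap, 789 to 931 CPM at 300 mg/kg-d against 707 to 767 CPM with vehicle, and a change of 0.25 ± 0.09 (adjusted p = 0.16). Cyp4b1, a P450 of club and type 2 cells, had medians of 941 CPM at 300 mg/kg-d and 783 CPM with vehicle (change 0.32, adjusted p = 0.217), and Fmo5 changed by 0.09 (adjusted p = 0.544).

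Aqp1 (chr6:55336432-55348555, plus strand), the water channel of lung capillary endothelium, rose without overlap. Its lowest, median and highest levels were 1315, 1522 and 2438 CPM at 300 mg/kg-d, against 1077, 1140 and 1255 CPM with vehicle. Replicate 65 gave the maximum, and the log2 fold change was 0.50 ± 0.11 (adjusted p = 0.0329), and 0.50 ± 0.12 without replicate 66 (adjusted p = 0.0234). Ly6c1 (chr15:75044018-75048830, minus strand), a surface protein of capillary endothelium and of lymphoid cells, had 272, 296 and 714 CPM at 300 mg/kg-d, against 195, 239 and 268 CPM with vehicle. Its change of 0.68 ± 0.16 (adjusted p = 0.0448) became 0.40 ± 0.14 without replicate 66 (adjusted p = 0.14), and its near copy Ly6c2, a monocyte gene, changed by -0.32 (adjusted p = 0.556).

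Ly6c1 was the 1 called member of 15 capillary endothelial markers, whose median was 0.02. Without replicate 66 the 1 called member was Emcn, the endothelial sialomucin endomucin, which was lower. Emcn had 39.6, 48.9 and 63.8 CPM at 300 mg/kg-d, against 61.3, 67.9 and 74.3 CPM with vehicle, and without replicate 66, where the groups did not overlap, its change was -0.53 ± 0.14 (adjusted p = 0.043).

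Foxs1 (chr2:152931898-152933208, minus strand), a forkhead transcription factor of pericytes and vessel wall cells, had the highest fold change of the 32 genes. Its levels were 2.19, 3.18 and 5.27 CPM at 300 mg/kg-d, against 1.03, 1.64 and 1.76 CPM with vehicle, and the groups did not overlap. The log2 fold change was 1.12 ± 0.23 (adjusted p = 0.0121), and 0.96 ± 0.23 without replicate 66 (adjusted p = 0.0205). None of 8 pericyte markers passed with all libraries. Cox4i2, Kcnj8 and Higd1b changed by 0.54, 0.42 and 0.29 (adjusted p = 0.0895, 0.155 and 0.322), with replicate 66 the highest for each. Without it Notch3, the Notch receptor of mural cells, passed with a change of 0.33 ± 0.09 (adjusted p = 0.0473). In female lungs at 300 mg/kg-d Notch3 changed by -0.02. No pericyte marker passed in a trend on dose over the male libraries, with or without replicate 66.

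Further genes that rose had other roles. Rasl11a (chr5:146845071-146847726, plus strand), a RAS-like GTPase, had 22.4, 27.3 and 41.1 CPM at 300 mg/kg-d, against 11.1, 15.7 and 22.3 CPM with vehicle, without overlap, and a change of 0.87 ± 0.20 (adjusted p = 0.0329; 0.76 ± 0.21 and adjusted p = 0.0487 without replicate 66). Fam189a2, Rbm15, Emc1, Endod1, Sppl3 and Dym changed by 0.41, 0.41, 0.32, 0.28, 0.28 and 0.38, and all 6 passed with and without replicate 66. Sppl3, an intramembrane protease that cleaves glycosyltransferases, had the smallest adjusted p of the genes that rose (0.00275), with 90.3 to 116.6 CPM at 300 mg/kg-d against 79.4 to 87.3 CPM with vehicle. Emc1, a subunit of the membrane protein insertase of the endoplasmic reticulum, had 62.0 to 73.4 CPM at 300 mg/kg-d against 48.7 to 56.1 CPM with vehicle. Rbm15, a subunit of the RNA N6-methyladenosine writer complex, had 17.2 to 21.5 CPM at 300 mg/kg-d against 13.5 to 15.4 CPM with vehicle.

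Ctla2a, a cysteine protease inhibitor, had 221, 266 and 704 CPM at 300 mg/kg-d, against 162, 202 and 222 CPM with vehicle, and Dpysl2, a microtubule-binding protein, had 185, 207 and 399 CPM at 300 mg/kg-d, against 154.05, 161 and 191 CPM with vehicle. Both maxima came from replicate 66, and both calls were lost without it (adjusted p = 0.109 and 0.0818). The near copy Ctla2b changed by -0.04 (adjusted p = 0.93). The predicted gene Gm13889 also rose, by 0.68, and was lost without replicate 66 (0.38, adjusted p = 0.123).

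**Figure D3:**
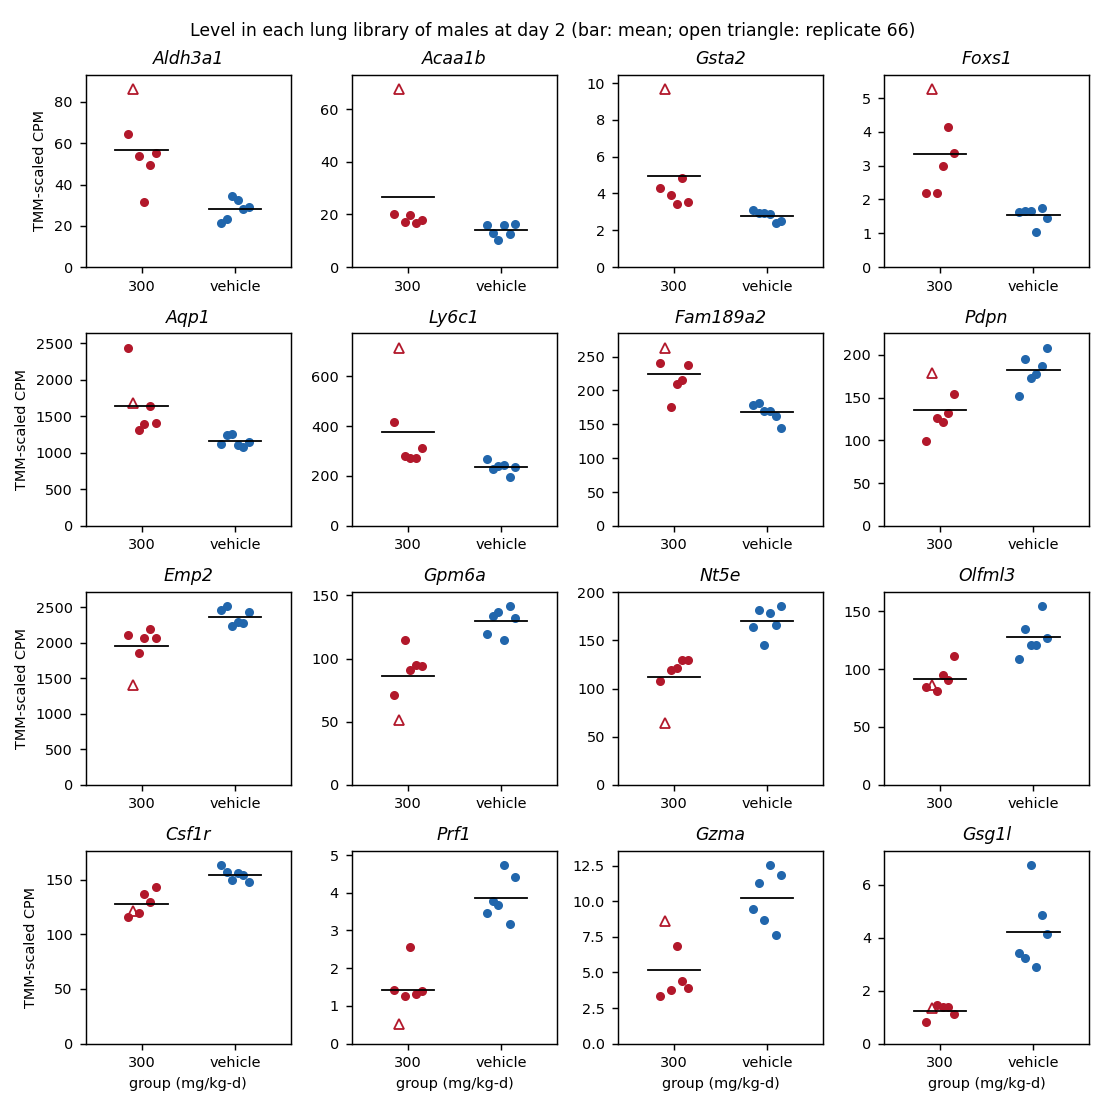
TMM-scaled CPM of 16 genes in each library, with 300 mg/kg-d in red on the left, vehicle in blue on the right, bars at the mean of 6 libraries and replicate 66 as an open triangle. Replicate 66 gives the maximum of Acaa1b (67.7 CPM), Gsta2 (9.69 CPM) and Ly6c1 (714 CPM), whereas Prf1, Gsg1l and Csf1r are lower in all 6 treated lungs than in every vehicle lung.

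Pdpn and Emp2, genes of the alveolar wall, fell. Pdpn (chr4:143267431-143299564, minus strand), podoplanin, a membrane glycoprotein of type 1 cells and lymphatic endothelium, had 99.1, 128.98 and 179 CPM at 300 mg/kg-d, against 151.9, 182 and 208 CPM with vehicle. The groups overlapped through replicates 66 and 72. Its log2 fold change was -0.43 ± 0.10 (adjusted p = 0.0329), and -0.52 ± 0.09 without replicate 66 (adjusted p = 0.00221). Emp2 (chr16:10281749-10313968, minus strand), a tetraspan membrane protein abundant in type 1 cells, had 1407, 2068 and 2188 CPM at 300 mg/kg-d, against 2235, 2357 and 2508 CPM with vehicle, without overlap. Its change was -0.28 ± 0.06 (adjusted p = 0.0329), and -0.20 ± 0.05 without replicate 66 (adjusted p = 0.0315). These were 2 of 12 type 1 cell markers tested, whose median was -0.20, and 2 passed without replicate 66 as well. The summed type 1 markers were 12085 to 13933 CPM at 300 mg/kg-d and 13353 to 15007 CPM with vehicle. Caveolar Sdpr (also called Cavin2), a coat protein of caveolae, had 653, 948 and 1024 CPM at 300 mg/kg-d, against 1036, 1128 and 1195 CPM with vehicle, and its change of -0.31 ± 0.07 passed with and without replicate 66 (adjusted p = 0.0329 and 0.0315).

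Gpm6a (chr8:54954843-55060871, plus strand), a membrane glycoprotein of mesothelial cells, was the 1 called member of 8 mesothelial markers tested (list median -0.20). It had 51.4, 92.4 and 115.04 CPM at 300 mg/kg-d, against 114.5, 133.1 and 141.3 CPM with vehicle, and replicate 67 alone reached the vehicle range. The change was -0.59 ± 0.12 (adjusted p = 0.0175), and -0.48 ± 0.12 without replicate 66 (adjusted p = 0.025). The summed mesothelial markers were 561 to 722 CPM in 5 treated lungs and 1134 CPM in replicate 66, against 671 to 914 CPM with vehicle, and their part in the result was not tested.

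Nt5e (chr9:88327197-88372092, plus strand), the ecto-5'-nucleotidase CD73 that converts AMP to adenosine at the cell surface, fell without overlap. Its levels were 64.6, 120 and 130 CPM at 300 mg/kg-d, against 145, 172 and 185 CPM with vehicle. The lowest value was that of replicate 66, the log2 fold change was -0.60 ± 0.11 (adjusted p = 0.00349), and -0.48 ± 0.09 without that library (adjusted p = 0.00338). It was the 1 called member of the 13 adenosine and purine signalling genes tested, whose median change was -0.02.

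Of 22 collagen and matrix genes, Olfml3 (chr3:103722222-103738001, minus strand), a secreted olfactomedin-like matrix protein, was the 1 to pass (list median -0.06). It had 81.3, 88.4 and 111.1 CPM at 300 mg/kg-d, against 109.01, 123.7 and 154.1 CPM with vehicle. The change was -0.48 ± 0.11 (adjusted p = 0.0348), and -0.47 ± 0.12 without replicate 66 (adjusted p = 0.0309). No member of the 12 fibroblast markers passed with all libraries. Without replicate 66, Pdgfra, the PDGF receptor of alveolar fibroblasts, was called higher (0.31 ± 0.08, adjusted p = 0.0479) and Inmt, an indolethylamine methyltransferase, lower (-0.38 ± 0.09, adjusted p = 0.0241). Npnt and Pi16, further fibroblast markers, changed by -0.33 and 0.26 (adjusted p = 0.146 and 0.52). Slc36a2, a proton-coupled amino acid transporter, had 21.04, 24.7 and 28.3 CPM at 300 mg/kg-d, against 31.7, 33.4 and 43.5 CPM with vehicle, without overlap, and fell by 0.51 (adjusted p = 0.028; adjusted p = 0.00734 without replicate 66).

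Epha1 (an ephrin receptor), Plscr2 (a phospholipid scramblase), Dusp3 (a dual-specificity phosphatase), Pls3 (an actin bundling plastin) and Sdc3 (a heparan sulfate proteoglycan) changed by -0.59, -0.40, -0.30, -0.31 and -0.33. Epha1 and Sdc3 lay at the threshold without replicate 66 (adjusted p = 0.0502 and 0.0504). Prkag3, the gamma-3 subunit of AMP-activated kinase and a skeletal muscle gene, changed by -0.76 ± 0.17 (adjusted p = 0.0329) and was the 1 called of 10 skeletal muscle markers tested. These markers summed to 37.1 to 86.8 CPM at 300 mg/kg-d and 56.7 to 103.2 CPM with vehicle, and their part in its change was not tested. Gsg1l (chr7:125878420-126082411, minus strand), an auxiliary subunit of AMPA glutamate receptors in the brain, had the lowest fold change. Its levels were 0.827, 1.37 and 1.44 CPM at 300 mg/kg-d, against 2.88, 3.77 and 6.73 CPM with vehicle, without overlap. The change was -1.75 ± 0.30 (adjusted p = 0.00275), and -1.77 ± 0.32 without replicate 66 (adjusted p = 0.00221).

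Prf1 (chr10:61297833-61304680, plus strand) encodes perforin, the pore-forming protein of cytotoxic granules. It had 0.510, 1.36 and 2.56 CPM at 300 mg/kg-d, against 3.16, 3.72 and 4.73 CPM with vehicle, and all 6 treated lungs lay below every vehicle lung. The change was -1.42 ± 0.28 (adjusted p = 0.0117), and -1.28 ± 0.29 without replicate 66 (adjusted p = 0.014). Gzma, granzyme A, a protease of the same granules, had 3.37, 4.14 and 8.59 CPM at 300 mg/kg-d, against 7.67, 10.4 and 12.5 CPM with vehicle. Its change of -1.02 ± 0.30 did not pass with all libraries (adjusted p = 0.0979) and passed without replicate 66 (-1.20 ± 0.32, adjusted p = 0.0473), where the groups did not overlap.

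Prf1 was the 1 called member of 10 NK cell markers tested, and 2 passed without replicate 66. All 10 had negative changes, with a median of -0.82 (-0.87 without replicate 66), where 45.3% of all genes were negative. Ncr1, the NK receptor NKp46, had 0.938 to 2.92 CPM at 300 mg/kg-d against 2.98 to 3.62 CPM with vehicle, without overlap, and a change of -1.11 ± 0.31 (adjusted p = 0.084). Klra8 and Klra4 were below the filter. The summed NK markers were 15.8 to 31.1 CPM in 5 treated lungs and 42.95 CPM in replicate 66, against 35.02 to 46.2 CPM with vehicle. The 9 cytotoxic effector genes tested, of which Prf1, Gzma and Nkg7 are also on the NK list, had a median of -0.59, with 1 called and 2 without replicate 66. None of 11 T cell markers passed, with a median of -0.40 (-0.64 without replicate 66) and 10 of 11 below 0. Bcl11b, Lck and Cd8a changed by -0.75, -0.58 and -0.69 (adjusted p = 0.108, 0.19 and 0.317).

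Csf1r, the receptor for macrophage colony-stimulating factor, was the 1 called of 11 monocyte and macrophage markers (list median -0.28, with 6 of 11 below 0). It had 115.8, 125.04 and 142.8 CPM at 300 mg/kg-d, against 147.9, 155.2 and 163 CPM with vehicle, without overlap. Its change was -0.28 ± 0.06 (adjusted p = 0.0365), and -0.26 ± 0.07 without replicate 66 (adjusted p = 0.0313). The summed markers of this list overlapped, with 243 to 477 CPM at 300 mg/kg-d, the highest in replicate 66, against 298 to 344 CPM with vehicle.

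Some lists with no called member had medians that moved toward or past 0 when replicate 66 was left out. S100a8 and S100a9, neutrophil calgranulins, had 113.2 and 155.6 CPM in replicate 66 and at most 18.9 and 29.5 CPM in the other 11 libraries. The 9 neutrophil markers tested had a median change of 0.70 with all libraries and -0.17 without that library, and Ltf, neutrophil lactoferrin, changed by 1.45 (adjusted p = 0.377). The 10 club cell markers had a median of 0.38 with all libraries and 0.04 without replicate 66. For the club cell genes Gsta3 and Hp, the maxima were 789 and 2523 CPM, both in replicate 66, against at most 388 and 1192 CPM in the other 11 libraries. The surfactant protein gene Sftpc had 44555 CPM in replicate 66, 12545 to 16565 CPM in the other treated lungs and 14958 to 16035 CPM with vehicle. The other 2 type 2 genes with the smallest p, Lamp3 and Cxcl15, changed by -0.18 and -0.29 (adjusted p = 0.419 and 0.435).

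Metallothioneins Mt1 and Mt2, zinc-binding proteins on the glucocorticoid-responsive list, had maxima of 165 and 76.1 CPM in replicate 66. In the other treated lungs they had 24.2 to 44.3 CPM and 8.32 to 26.9 CPM, against 16.9 to 35.5 CPM and 5.83 to 11.98 CPM with vehicle. Their changes of 1.20 ± 0.34 and 1.63 ± 0.43 did not pass (adjusted p = 0.0849 and 0.0726), and neither did Zbtb16 (-1.33, adjusted p = 0.321). Without replicate 66 the changes of Mt1 and Mt2 were 0.47 and 0.96 (adjusted p = 0.463 and 0.245). Adm, adrenomedullin, on the hypoxia list, had groups that did not overlap, 6.62 to 15.8 CPM at 300 mg/kg-d against 5.28 to 6.61 CPM with vehicle, and a change of 0.83 ± 0.26 (adjusted p = 0.11). Ldha and Ankrd37 of the same list changed by 0.34 and 0.77 (adjusted p = 0.155 and 0.169), with replicate 66 the highest for each. Without that library they changed by 0.09 and 0.14 (adjusted p = 0.678 and 0.827).

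The circadian clock is a feedback loop in which ARNTL and CLOCK drive the genes of their own repressors and of output factors. None of 19 clock genes passed with all libraries, and 2 passed as lower without replicate 66. In female lungs at 300 mg/kg-d, 3 of the 19 were called higher and 8 lower. Over all genes, 3.64% were called higher there and 5.09% lower. Ciart, a repressor of ARNTL and CLOCK, had 2.04, 5.32 and 6.998 CPM at 300 mg/kg-d, against 5.99, 9.08 and 13.7 CPM with vehicle (-0.95 ± 0.23 without replicate 66, adjusted p = 0.0271). Tef, a PAR-domain output factor, had 254, 362 and 394 CPM at 300 mg/kg-d, against 438, 471 and 523 CPM with vehicle, without overlap (-0.46 ± 0.12 without replicate 66, adjusted p = 0.0326). Bhlhe41, another repressor, did not overlap between groups and reached an adjusted p of 0.0803.

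Nr1d1, the repressor REV-ERB alpha, had 10.3 to 83.7 CPM at 300 mg/kg-d against 72.4 to 358 CPM with vehicle. Arntl had 5.02 to 36.6 CPM at 300 mg/kg-d against 4.66 to 6.54 CPM with vehicle, and neither passed (adjusted p = 0.084 and 0.144). The lowest Nr1d1 and Dbp of each group lay in the library with its highest title number, replicate 72 at 300 mg/kg-d and replicate 8 with vehicle. The labels do not say what that order stands for. With the place of the title number, within its block of 8 numbers, as a term in the fit, Nr1d1 changed by -2.5 ± 0.34, Dbp by -1.73 ± 0.35, Bhlhe41 by -0.75 ± 0.13 and Ciart by -0.91 ± 0.19, and all 4 passed (adjusted p = 2.67e-05, 0.00717, 0.00143 and 0.0101), beside 0.491% of all genes. Arntl and Tef did not pass in that fit (adjusted p = 0.0608 and 0.0512), and all 6 passed when replicate 66 was also left out. Of 19 clock genes only these 6 are given from this fit. Nr1d1, Arntl and Dbp were chosen after their values were seen, so the share of all genes is no test of them. The term covers order within a block of 8. The order of the blocks went with dose and cannot be told apart from it.

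The fit without replicate 66 called further genes. By the size of the change the first of them were Ankfn1, Ikzf4, Gprin3, Shisa9, Mest and Edn1 among the higher and Gzma, Ciart, Lrrc17, Pigz, Spn and Kcnn4 among the lower. Gprin3, a G protein regulated protein of neurite growth, had 10.2 to 13.2 CPM in 5 treated lungs and 1.11 CPM in replicate 66, against 4.93 to 6.41 CPM with vehicle (1.01 ± 0.15, adjusted p = 0.000142). Ikzf4, the Ikaros family factor Eos, had 1.02 CPM in replicate 66 and 5.25 to 11.3 CPM in the other 5, against 2.83 to 5.42 CPM with vehicle (1.03 ± 0.22, adjusted p = 0.00786). Edn1, the vasoconstrictor endothelin-1, had 70.5, 91.01 and 112.2 CPM at 300 mg/kg-d, against 33.5, 56.4 and 102.8 CPM with vehicle (0.64 ± 0.17, adjusted p = 0.0487). Spn, leukosialin of leukocytes, had 10.8, 11.6 and 17.4 CPM at 300 mg/kg-d, against 18.002, 19.1 and 26.5 CPM with vehicle (-0.71 ± 0.19, adjusted p = 0.049).

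Gene length moved with these calls. The median exonic length was 8486 bases in the genes called higher without replicate 66 and 3147 bases in those called lower, against 4301 bases over all genes tested. After a trend on length was removed from each library, 55 genes passed as higher and 48 as lower without replicate 66. Their median lengths were still 7326 and 4898.5 bases. With all 12 libraries and this removal, 19 passed as higher and 24 as lower, with medians of 6648 and 3802.5 bases. With all 12 libraries and no such removal, the medians were 2368 bases for the higher and 3926 bases for the lower genes.

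RefSeq promoters (GRCm38.p6; the 250 bases before the start of transcription) were on hand for 21 of the 32 called genes. They are shown for Rasl11a and Gsta2, which rose, and Prf1, which fell, as examples of where a searched motif lies in called genes. The Gsta2 window lies inside the span annotated to the gene, which begins further upstream in GENCODE than in RefSeq. The AHR core GCGTG was found, as all motifs here on either strand, in 3 of 10 promoters of genes that rose and 4 of 11 of genes that fell, beside 47.4% of 11463 tested genes with a promoter. The antioxidant response element core TGACNNNGC was found in 2 of 10 and 2 of 11, beside 13.96%. The clock E-box CACGTG was in 1 of 10 and 1 of 11, beside 9.33%, and the glucocorticoid receptor motif TGTTCT in 2 of 10 and 1 of 11, beside 13.2%. No motif contains another, and a match is a description of letters, not of binding. Capitals mark the match, and each sequence is written on the strand of its gene.
Rasl11a, chr5:146844821-146845070, plus strand, AHR core on the other strand: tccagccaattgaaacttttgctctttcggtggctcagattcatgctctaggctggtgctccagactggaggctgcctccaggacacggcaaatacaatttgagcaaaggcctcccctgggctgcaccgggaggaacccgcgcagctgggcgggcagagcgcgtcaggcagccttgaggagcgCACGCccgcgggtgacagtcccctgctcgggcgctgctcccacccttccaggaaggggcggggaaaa
Gsta2, chr9:78347146-78347395, minus strand, AHR core: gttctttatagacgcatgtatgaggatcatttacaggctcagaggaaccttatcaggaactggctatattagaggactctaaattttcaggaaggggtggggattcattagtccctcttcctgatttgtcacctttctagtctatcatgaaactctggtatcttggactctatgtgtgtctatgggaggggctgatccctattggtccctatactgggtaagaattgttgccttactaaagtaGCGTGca
Prf1, chr10:61297586-61297835, plus strand, antioxidant response element core: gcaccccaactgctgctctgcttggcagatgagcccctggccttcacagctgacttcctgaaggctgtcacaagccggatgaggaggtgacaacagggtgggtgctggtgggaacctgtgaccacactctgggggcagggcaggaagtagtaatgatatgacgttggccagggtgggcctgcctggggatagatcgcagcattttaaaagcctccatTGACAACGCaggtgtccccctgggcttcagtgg

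The lower doses place these values on a series. Against the same vehicle group, no gene passed at 50 mg/kg-d (421 at an unadjusted p under 0.05; DESeq2 called 1), 1 passed at 100 mg/kg-d, and none passed at 200 mg/kg-d (1323 at an unadjusted p under 0.05; DESeq2 called 23). Fits of single doses with vehicle and no further group called 0%, 0.116% and 0.794% of genes at 50, 100 and 200 mg/kg-d. The like fit at 300 mg/kg-d called none with replicate 66 and 1.19% without it. The 1 gene at 100 mg/kg-d was Bcl6, a transcriptional repressor, which averaged 67.99 ± 3.9, 43.8 ± 7.5, 43.3 ± 3.3, 50.01 ± 12.4 and 62.9 ± 14.01 CPM at 0, 50, 100, 200 and 300 mg/kg-d (SD, n = 6 each). A straight-line trend on dose over the 30 male libraries called 190 of 14827 genes, or 1.28%. Of these 81 rose with dose (0.546%) and the others fell (0.735%), and 27 of the 32 genes called at 300 mg/kg-d were among them, with libraries in common. Without replicate 66 the trend called 573 genes, of which 27 were among the 32. Without the vehicle group it called 56, of which 11 were among the 32, and without the 300 mg/kg-d group 275, of which 5 were. Some genes lost at 300 mg/kg-d without replicate 66 passed in the trend without that library. These included Acaa1b, Ly6c1 and Dpysl2 (adjusted p = 0.0206, 0.0341 and 0.00365). Gsta2, Ctla2a and Gm13889 did not pass in it (adjusted p = 0.16, 0.141 and 0.305).

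Of 10 NK cell markers tested, 6 fell with dose in the trend, Prf1, Eomes, Ncr1, Gzma, Klrb1c and Klrk1, and 7 passed without replicate 66. Without the vehicle group 4 passed, and without the 300 mg/kg-d group none did, with all 10 slopes below 0 in both fits. Without the 300 mg/kg-d group Prf1, Eomes and Klrb1c had adjusted p = 0.137, 0.163 and 0.12. The list median was -0.98 log2 units per 300 mg/kg-d, beside 0.02 over all genes. Other lymphocyte lists also had negative slopes. The medians of 8 B cell and 11 T cell markers were -0.88 and -0.53, with every slope below 0. None of these passed with all libraries, and 2 T cell markers passed as lower without replicate 66. Prf1 averaged 3.87 ± 0.59, 4.62 ± 1.28, 3.47 ± 1.38, 2.51 ± 1.12 and 1.41 ± 0.66 CPM at 0, 50, 100, 200 and 300 mg/kg-d (SD, n = 6 each). The means of the 3 lowest doses lay within an SD of each other, and the lower levels were at 200 and 300 mg/kg-d. Eomes, the NK cell transcription factor, averaged 1.15 ± 0.44, 1.28 ± 0.44, 1.09 ± 0.46, 0.694 ± 0.299 and 0.501 ± 0.211 CPM over the same doses. Klrb1c, the NK1.1 receptor, averaged 2.70 ± 0.66, 2.89 ± 0.79, 2.58 ± 0.85, 1.77 ± 0.49 and 1.46 ± 0.58 CPM. Their slopes were -1.54 ± 0.27, -1.32 ± 0.29 and -1.02 ± 0.22 per 300 mg/kg-d (SE; adjusted p = 0.00259, 0.0143 and 0.0139). The monocyte markers Csf1r, Adgre4 and Treml4 also fell with dose, 3 of 11 tested, by 0.25, 1.13 and 0.68 per 300 mg/kg-d. Of the 11 slopes only 6 were below 0, and none of the 11 passed without the 300 mg/kg-d group.

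The 4 genes with the smallest adjusted p in the trend were Olfml3, Slc36a2, Lrrc17 and Fam189a2 (0.000109, 0.00038, 0.00038 and 0.000513, the last shared with Gsg1l). Olfml3 averaged 127.6 ± 15, 136 ± 13, 114.5 ± 4.5, 92.3 ± 5.2 and 91.4 ± 10.8 CPM at 0, 50, 100, 200 and 300 mg/kg-d, and the means of the 2 highest doses lay within an SD of each other. Fam189a2 averaged 168 ± 14, 185 ± 7, 190 ± 7, 212 ± 9 and 224 ± 30 CPM. Aldh3a1 averaged 28.1 ± 5.0, 41.9 ± 10.3, 44.3 ± 9.1, 49.4 ± 10.3 and 56.9 ± 18.1 CPM, with a slope of 0.82 ± 0.18 (adjusted p = 0.0143, and 0.0536 without the 300 mg/kg-d group). Nt5e averaged 170 ± 15, 175 ± 21, 171 ± 8, 145 ± 15 and 112.2 ± 24.6 CPM, with a slope of -0.63 ± 0.11 (adjusted p = 0.00119, and 0.0678 without the 300 mg/kg-d group). Olfml3, Slc36a2, Lrrc17 and Fam189a2 passed without the 300 mg/kg-d group as well.

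Beyond the called set, Angptl7, a secreted angiopoietin-like protein, had medians of 24.5 CPM at 300 mg/kg-d and 8.01 CPM with vehicle and a slope of 1.55 ± 0.25 (adjusted p = 0.000786). Cyp26b1, the retinoic acid hydroxylase, had medians of 86.2 CPM at 300 mg/kg-d and 40.6 CPM with vehicle and a slope of 1.56 ± 0.38 (adjusted p = 0.031). Pmvk, a kinase of cholesterol synthesis, had medians of 66.9 CPM at 300 mg/kg-d and 40.1 CPM with vehicle and a slope of 0.95 ± 0.15 (adjusted p = 0.000786). All 3 calls held without replicate 66. Mt1 and Mt2 were called in the trend (adjusted p = 0.0423 and 0.0277) and not without that library (0.183 and 0.128). These 5 genes were chosen after their values were seen.

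**Figure D4:**
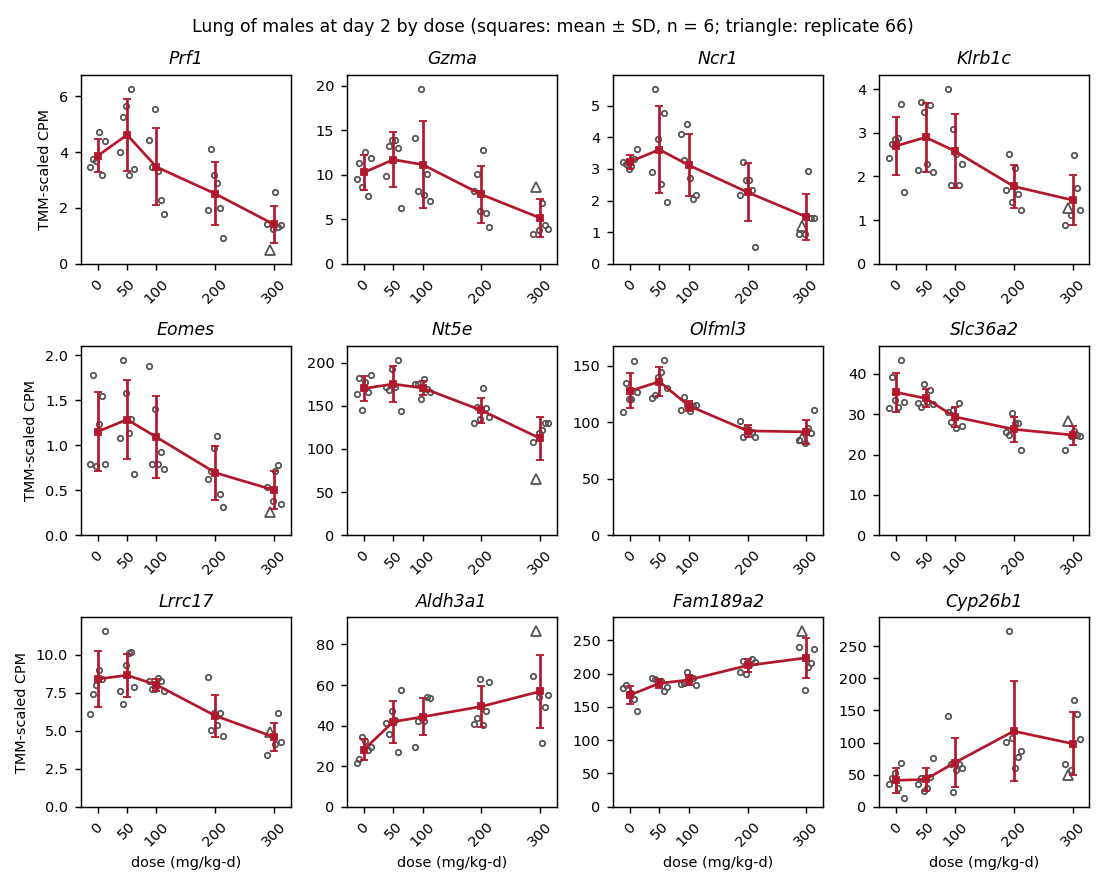
TMM-scaled CPM of 12 genes in male lungs (y axis) by dose (x axis, mg/kg-d, with vehicle at 0), with open points for libraries, a triangle for replicate 66 and squares for the mean ± SD of 6 libraries. The mean of Prf1 is 3.47 to 4.62 CPM up to 100 mg/kg-d and 2.51 and 1.41 CPM at 200 and 300 mg/kg-d, and the mean of Aldh3a1 is 28.1 CPM with vehicle and 41.9 to 56.9 CPM at the doses above it.

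Female lungs, which have their own vehicle group, showed the same signs. All 32 genes called in males had the same sign in females at 300 mg/kg-d, beside 56.3% of the 15240 genes. Of the 32, 10 of the 16 higher genes were also called higher in females, where 3.64% of genes were called higher, and 16 of 16 lower genes were called lower, where 5.09% were. These 26 genes were 81.2% of the male set and 1.95% of the 1330 called in females. Aldh3a1 was 53.1 ± 11.6 CPM in females at 300 mg/kg-d and 21.3 ± 6.0 CPM in females with vehicle (SD, n = 6 each), a change of 1.32 ± 0.19 (adjusted p = 9.18e-06). Prf1 was 3.004 ± 1.41 CPM in females at 300 mg/kg-d and 7.24 ± 1.27 CPM in females with vehicle, a change of -1.28 ± 0.25 (adjusted p = 0.000752). Gsta2, Ctla2a, Dpysl2, Gm13889, Aqp1 and Foxs1 were the 6 not called in females, with changes of 0.15, 0.23, 0.19, 0.34, 0.33 and 0.66. All 10 NK markers tested were called lower in females. Of 11 T cell markers tested, 4 were called lower there, and of 8 B cell markers none. Of the 172 genes called in males without replicate 66, 169 had the same sign in females and 82 were called there in that direction.

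The difference of the 300 mg/kg-d effect between the sexes passed for none of the 15240 genes (0.00%) with edgeR or DESeq2, while 1964 genes had an unadjusted p under 0.05, and 1184 without replicate 66. Of the 32 genes, 3 had an unadjusted p under 0.05, Gsta2, Ctla2a and Olfml3 (0.0185, 0.0268 and 0.00955). Tmem17, Pim1, Wnt4 and Tubb2a had the smallest p, each with an adjusted p of 0.338. Tmem17 changed by 0.45 in males and -0.25 in females, and Wnt4, a secreted ligand, by 0.45 and -0.18. Pim1, a serine kinase, changed by -0.13 and 0.57, and Tubb2a, a beta-tubulin, by 0.06 and -0.66.

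**Figure D5:**
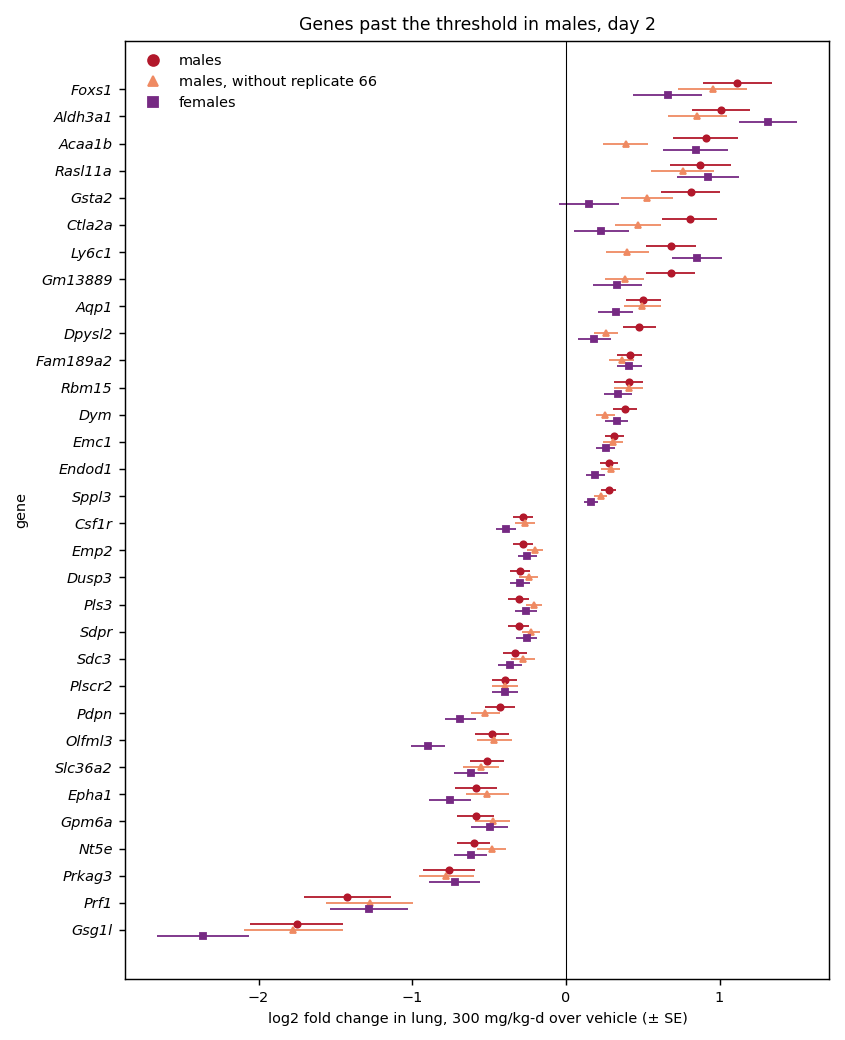
Log2 fold change (x axis, ± SE) of the 32 called genes (y axis) at 300 mg/kg-d over vehicle in male lungs (circles), in male lungs without replicate 66 (triangles) and in female lungs (squares). All 32 genes have the same sign in the 3 fits, and Acaa1b, Gsta2, Ctla2a, Ly6c1, Gm13889 and Dpysl2 move toward 0 without replicate 66.

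In male livers of the same day, 3 of the 23 called genes that could be tested there were called, Gsta2 and Sdc3 lower and Nt5e higher, where 15.1% of the liver genes were called. The difference between lung and liver effects passed for 4 of 15146 genes, or 0.0264%: Gsta2, Nt5e, Col20a1 and Rnf144b. In the fit of both tissues, Gsta2 changed by 0.82 in lung and -1.05 in liver (difference 1.87 ± 0.30, adjusted p = 0.0223). Its liver levels were 5.96, 9.87 and 12.03 CPM at 300 mg/kg-d, against 15.6, 20.7 and 27.2 CPM with vehicle (lowest, median and highest of 6 each). Nt5e changed by -0.58 in lung and 0.79 in liver (difference -1.37 ± 0.25, adjusted p = 0.0459), with liver levels of 15.2, 22.7 and 26.97 CPM at 300 mg/kg-d against 8.07, 12.7 and 17.04 CPM with vehicle. The 300 mg/kg-d and vehicle groups of Gsta2 did not overlap in either tissue, and those of Nt5e overlapped in liver but not in lung. Col20a1, a collagen, and Rnf144b, a ubiquitin ligase, changed by 0.14 and 0.00 in lung and by -1.05 and 0.68 in liver (differences 1.19 ± 0.21 and -0.68 ± 0.12, adjusted p = 0.0375 for both). Without replicate 66 of both tissues, all 4 passed among 36 genes. With the title numbers that the tissues share as a replicate block, Gsta2 and Nt5e passed (adjusted p = 0.021 and 0.0408) and Col20a1 and Rnf144b did not (adjusted p = 0.278 and 0.204).

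In male lungs after 4-MEI in feed at 2500 ppm, none of the 32 genes passed after 5 days or after 28 days. The same sign was seen for 11 of 32 after 5 days, beside 42.1% of 15184 genes, and for 22 of 32 after 28 days, beside 57.2% of 15171 genes. The smallest unadjusted p among the 32 was 0.00533 after 5 days (Sdc3) and 0.00534 after 28 days (Ly6c1). Over all genes, none passed after 5 days with edgeR (1328 at an unadjusted p under 0.05), and after 28 days 2 passed, Nqo1 (0.63) and the microRNA gene Mir703 (1.03; both adjusted p = 0.0261). Route, dose and duration differ from the gavage groups, so no comparison of sizes is made.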

How the data were processed

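RNA from lung tissue was sequenced after poly(A) selection with a stranded mRNA kit (Illumina TruSeq), per the labels' protocols. The authors deposited 1 table of raw read counts per gene symbol for each tissue and day. Per the submitters' processing notes, the tools were Trimmomatic, Bowtie2, SAMtools and HTSeq with the mm10 build. What annotation was counted, with which tool versions and whether by strand is not given in the sources used here. Reads of overlapping and antisense genes may therefore be mixed. Column names were matched to sample titles. In the day 28 lung table, 1 column without a name was not used.

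From the deposited counts, edgeR 4.0.16 (R 4.3.3; filterByExpr, TMM, robust quasi-likelihood test) was fitted with 1 mean per group over the 60 day 2 lung libraries, and p-values were adjusted by Benjamini-Hochberg over all genes tested (threshold 0.05). SE is the size of the log2 fold change over the square root of F. CPM values are TMM-scaled. The dose trend is 1 slope over the 30 male libraries, given per 300 mg/kg-d. Differences between sexes or tissues are interaction contrasts. The lung and liver counts were joined by symbol. DESeq2 1.42.0 and limma 3.58.1 (voom with quality weights) were alternatives. Exonic lengths and gene coordinates came from GENCODE M21 on GRCm38 and were matched by symbol for 24027 of 24421 genes. Library totals over the table were 7253910 to 20232366 counts.

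Genes were named by rule: the 15 called genes with the highest and the 15 with the lowest log2 fold change; up to 6 in each direction among those called only without replicate 66; for each list, up to 4 called members, otherwise up to 3 with the smallest p; and, from the trend and each test of a difference, up to 4 by adjusted p. Genes under a mean of 1 CPM in both groups and predicted models were passed over (1 called gene, Gm13889, is named all the same). Near copies, Bcl6, Nqo1, Mir703, Nr1d1, Arntl, Dbp and the members whose call changed without replicate 66 were added after their values were seen. The genes, lists and alternatives were chosen with earlier results of these data known.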

Additional observations from a re-analysis of the deposited data

Results flagged for a closer look

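In 36 groups of 6 libraries, or 23.1% of those checked (78 named genes, each at 300 mg/kg-d and with vehicle), the gap of the highest or lowest library to the nearest, over the group's range, was above Dixon's critical value. Chance gives about 1 in 20 for independent groups of normally distributed values. The 78 genes share the same libraries, and some were named from the fits with and without replicate 66. The share is therefore a description and no test. Replicate 66 was that library in 25 of the 29 groups at 300 mg/kg-d, and vehicle libraries made up 7.

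Replicate 66 was the highest of the 300 mg/kg-d group, by CPM with the next value after it, for Acaa1b (67.69, next 19.97), Gsta2 (9.695, next 4.85), Ctla2a (703.8, next 366.2), Ly6c1 (714.3, next 415), Dpysl2 (398.9, next 208.6), Dym (79.17, next 55.96), Kcnn4 (5.698, next 3.037) and Tmem17 (6.803, next 4.374). Among genes with no call in either fit, the same held for the neutrophil genes S100a8 (113.2, next 18.86) and S100a9 (155.6, next 29.52), and for the epithelial genes Sftpc (44555, next 16565), Gsta3 (789.5, next 387.5) and Hp (2523, next 1192). It also held for Pi16 (64.29, next 34.09), Cox4i2 (129.9, next 59.21), Higd1b (50.94, next 22.04), Mt2 (76.11, next 26.94), Mt1 (164.8, next 44.32), Ldha (245.9, next 137.5) and Ankrd37 (14.71, next 4.824). Replicate 66 was the lowest for Pls3 (189.1, next 300.7), Sdpr (653.1, next 922.2), Nt5e (64.63, next 108.1), Gprin3 (1.106, next 10.24) and Pdgfra (231.3, next 550.1).

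Other 300 mg/kg-d libraries stood highest for Aqp1 (replicate 65, 2438 CPM), Bcl11b (replicate 68, 6.134 CPM), Cxcl15 (replicate 72, 1515 CPM) and Zbtb16 (replicate 67, 105.9 CPM). With vehicle, the highest were Dym in replicate 5 (47.48 CPM), Spn in replicate 3 (26.51 CPM) and Hp in replicate 4 (1134 CPM). The lowest with vehicle were S100a8 and S100a9 in replicate 8 (6.449 and 10.27 CPM), Sftpc in replicate 3 (14958 CPM) and Cyp4b1 in replicate 1 (485.4 CPM).

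The effect of 300 mg/kg-d differed between lung and liver, by the interaction test of edgeR, for Gsta2 (difference 1.871), Col20a1 (1.19), Nt5e (-1.373) and Rnf144b (-0.676), on the log2 scale as lung minus liver, with adjusted p = 0.0223, 0.0375, 0.0459 and 0.0375. Col20a1 and Rnf144b did not pass with a replicate block (adjusted p = 0.278 and 0.204).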

How the results depend on the processing

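The share of tested genes called at 300 mg/kg-d, 0.210% with all 12 libraries, stayed within 1.5 times that count with RLE size factors (0.210%), no filter on low counts (0.141%), 1 CPM in 6 libraries (0.224%), the male libraries alone (0.194%) and a length trend removed (0.282%). Of the 32 genes, 32, 28, 32, 18 and 23 kept their call in these fits. It was 0.991% with DESeq2, 3.68% with limma voom and quality weights, 0% with the compared groups alone, and 0.491% with the place of the title number as a term. Leaving out 1 library each gave 0.0654% to 2.21%. Without replicate 66 it was 1.19% with the compared groups alone, 1.94% with DESeq2, 0.674% after removal of the length trend, 1.85% with the place term and, with replicate 68 also left out, 0.665%. The length trend, the place term without replicate 66 and the joint removal were chosen after seeing the data. No called gene changed sign in any of these fits. The causes were not tested.

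Without replicate 66, the called members changed to 2 lower for NK cells, cytotoxic effectors and clock genes, 1 higher and 1 lower for fibroblasts, 1 higher for pericytes, 0 higher and 1 lower for capillary endothelium, and 0 higher for NRF2 and PPAR-alpha targets. The trend's 1.28% became 3.86% without replicate 66, 0.378% without the vehicle group and 2.71% with DESeq2. At 50, 100 and 200 mg/kg-d DESeq2 called 0.00656%, 0.0131% and 0.151%, and the compared groups alone 0%, 0.116% and 0.794%. The share that differed between lung and liver, 0.0264%, became 0.0462% with RLE size factors, 0.541% with DESeq2 and 0.237% without replicate 66. The difference between sexes passed for 0 genes with edgeR, RLE size factors, no filter, DESeq2, the 4 compared groups alone, and without replicate 66 or 78.

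Lung and liver libraries share title numbers. In a check of the pairing, the correlations of their deviations were 0.0018 to 0.245 over 11 pairs. All 11 were above 0, 3 were over 0.1 and 6 were best with their own number. This check does not decide whether the numbers pair the samples. The main fit used no block, and the fit with a block is given beside it. With a replicate block on the shared numbers, 0.0321% of genes (5) differed between lung and liver, and without it 0.0197% (3). Under the block 2 of the 4 genes, Gsta2 and Nt5e, passed. Within the lung, no replicate block could be fitted, because the groups share no number.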

Other observations

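Several lists that the account above leaves out had no called member at 300 mg/kg-d with or without replicate 66. None of 25 interferon-stimulated genes passed (median log2 fold change -0.08), none of 21 inflammation genes (0.10), none of 15 p53 targets (0.00), none of 25 cell cycle genes (-0.09), none of 13 unfolded protein response genes (-0.08) and none of 14 integrated stress response genes (0.07), beside a median of 0.02 over all genes. The 13 heat shock genes had a median of 0.31 (0.26 without replicate 66), with 1 below 0. Among cell types, the 12 ciliated cell markers had a median of 0.20 (0.05 without replicate 66), and the 8 B cell markers tested had -0.60 (-0.57 without it), all 8 below 0 and none called. The summed B cell markers were 25.5 to 60.9 CPM at 300 mg/kg-d and 42.05 to 70.2 CPM with vehicle, which overlapped.

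Over the 51 lists, 13 had a called member in the comparison of 300 mg/kg-d with vehicle and 38 had none.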
